A study of Mus musculus with 8 samples.

Results

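Genes of mitosis were followed through B-cell development in mouse bone marrow. The 40 members are a list of mitotic genes given by symbol, and every row of the mRNA table with a member's symbol was taken, which gave 40 of the 22298 genes in the table. Cells of 4 stages were sorted from the bone marrow of wild type female C57BL/6 mice aged 8 to 10 weeks, and the cells of 3 mice were pooled for each library. The sort was on live cells, as B220+IgM-CD43+ (pro-B), B220+IgM-CD43- (pre-B), B220+IgM+CD43- (immature B) and B220hiIgM+CD43- (mature B), with no marker of the cell cycle. Each stage had 1 rRNA-depleted RNA library, so no comparison below has a replicate check and no p-value is given; a pool also hides the spread between mice.

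In mitosis the duplicated chromosomes are condensed, attached to a spindle of microtubules and pulled apart, after which the cell is divided by cytokinesis. Most genes of this program are transcribed late in the cell cycle and silent in resting cells, so their RNA in a cell population reflects how many of its cells are cycling and how much of each RNA these cells hold, which cannot be told apart in bulk RNA. Pro-B cells and large pre-B cells are known to divide, whereas small pre-B cells and the IgM+ cells that follow are mostly at rest.

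The mRNA counts are StringTie estimates, not always whole, with totals of 867920 for pro-B, 240231 for pre-B, 223495 for immature B and 849349.8 for mature B. Counts were scaled to these totals as CPM, and 1 count was worth 1.15, 4.16, 4.47 and 1.18 CPM in that order of stages, which is kept throughout. The mRNA share of mRNA and lncRNA counts together was 23.7%, 6.48%, 6.48% and 23.5%, so the pre-B and immature B libraries held far fewer mRNA counts than the libraries of pro-B and mature B cells. Whole counts were mostly even, with 1263 genes at 2 counts and 154 at 1 count in the pro-B library, as when both reads of a pair are counted. The 95% intervals below were therefore computed on read pairs, at 2 counts per pair, and they cover counting error only. For 0 counts they reach up to 8.50, 30.7, 33.0 and 8.69 CPM. If each read counted alone, the same intervals for 0 counts would reach up to 4.25, 15.4, 16.5 and 4.34 CPM.

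On CPM the marker lists of the B-cell stages were highest in the library of their label, except that of pre-B cells, and on FPKM this held for the pro-B and mature B lists only. Dntt, the terminal transferase of pro-B cells, had 845 counts in the pro-B library and 0 in each of the others. Fcer2a, the CD23 of mature B cells, had 358 counts in the mature B library and 0 in each of the others. The summed CPM of the 7 pro-B markers was 2495, 179, 44.7 and 56.5, and that of the 8 mature B markers 399, 266, 809.9 and 5322. The 4 immature B markers, with Ighm, summed to 4337, 7530.1, 9504 and 5087 CPM, but their FPKM was highest in mature B cells, at 399, 199, 264 and 525. The 4 pre-B markers, with Rag1, summed to 1278, 1066, 576 and 15.2 CPM, and so were slightly higher in the pro-B than in the pre-B library. The 6 genes of all B cells summed to 4283, 4339, 5776 and 5709.8 CPM.

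The 40 mitosis genes together were highest in the pro-B library. Their counts summed to 2266 in the pro-B, 271 in the pre-B, 143 in the immature B and 682 in the mature B library. On the CPM scale the sums were 2611 (95% interval 2461 to 2767) in pro-B, 1127 (942 to 1330.3) in pre-B, 638 (496 to 801) in immature B and 803 (720.0 to 893) in mature B cells. The interval of the pro-B library lay above the other 3, that of pre-B lay above those of immature B and mature B, and the last 2 overlapped. The summed FPKM as deposited, which the authors scaled by transcript length and by fragments mapped to reference genes, was 124, 21.0, 10.4 and 48.4. Both scales thus put pro-B at the top and immature B at the bottom, but the mature B library came after the pre-B library on CPM and before it on FPKM.

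**Figure D1:**
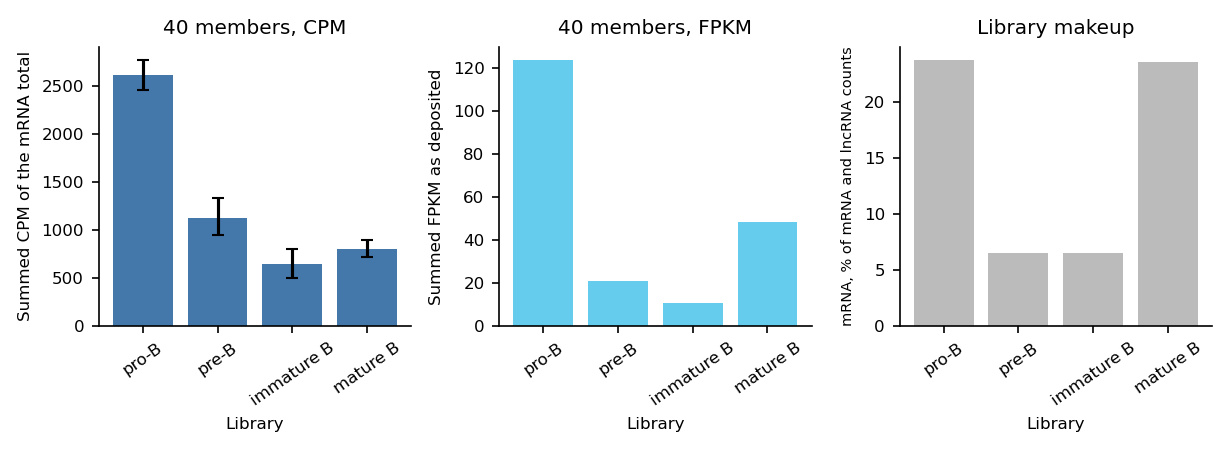
Summed CPM of the 40 mitosis genes (left, bars are sums and whiskers 95% counting intervals on read pairs), summed FPKM as deposited (middle) and the mRNA share of mRNA and lncRNA counts (right), for the 1 library of each stage. CPM went from 2611 in pro-B to 638 in immature B cells, and the mRNA share was 6.48% in both middle stages.

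Of the 40 members, 38 had counts above 0 in the pro-B library, 33 in pre-B, 25 in immature B and 36 in mature B cells. Those with 10 or more counts were 35, 7, 1 and 21. At their pro-B CPM values, 17 members would have reached 10 counts at the depth of the pre-B library and 15 at that of the immature B library. Kif20a, a kinesin of the central spindle, and Ncapg, a condensin I subunit, had 0 counts in all 4 libraries. Among the 38 others the highest CPM was in pro-B for 30, in pre-B for 6 and in immature B for 2, whereas the highest FPKM was in pro-B for 34 and in mature B for 4.

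**Figure D2:**
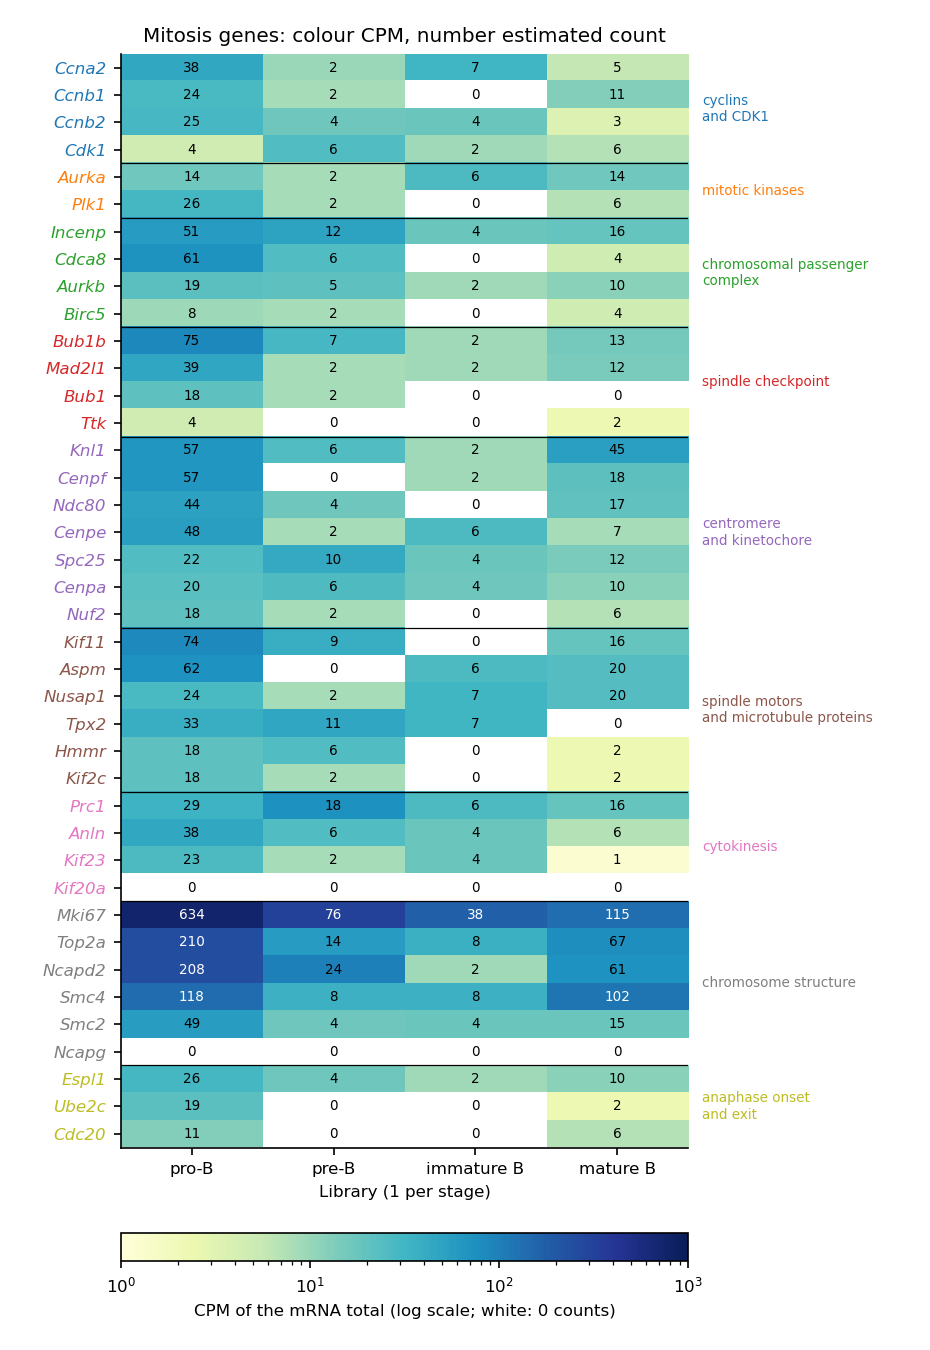
CPM (colour, log scale) and estimated counts (numbers) of the 40 mitosis genes, grouped by role, in the 1 library of each stage (columns); white cells are 0 counts. The pro-B column is the darkest for 30 genes, and Kif20a and Ncapg are white in all 4 columns.

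The step from pro-B to pre-B cells asks how the levels differ at the start of the pre-B stage. The summed CPM in pre-B cells was 0.432 of that in pro-B cells (95% interval 0.357 to 0.515). A gene was called when its CPM differed at least 2-fold between the libraries, with counts under 3 set to 3, among genes with 10 or more counts in at least 1 of them. Of the 35 members that passed this filter, 19 were called lower in pre-B cells, where 29.2% of the 9152 genes tested were called lower, and 1 was called higher (Prc1), where 14.8% of genes were. The counting intervals of 12 of the 19, and of Prc1, include no difference, and those of Cenpe, Cenpf, Aspm, Top2a, Mki67, Smc4 and Ncapd2 do not. The members tested had a median log2 CPM ratio of -1.15 and all genes tested -0.37. Relative to that median of all genes, the summed CPM ratio was 0.558. All 35 had 10 or more counts in pro-B and 7 of them in pre-B, so the filter itself favours calls of lower and lowers the members' median. All 40 were therefore also counted by CPM alone. Of these, 32 were lower in pre-B cells than in pro-B, 6 were higher and 2 were at 0 in both. Tallies by CPM alone, here and below, have no share of all genes beside them. They are therefore not read as a difference from other genes.

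The scaling sets the size of this difference. Scaling to mRNA and lncRNA counts together moved the median of all genes by -1.87 on the log2 scale and FPKM moved it by -1.99, and the members' summed ratio was 0.118 and 0.170 on these scales. DESeq2 size factors moved the median by 0.18, with a summed ratio of 0.489. Relative to the median of all genes on the same scale, the sum was lower by a log2 of -0.84 on CPM, a value that the other scalings of counts cannot change, and of -0.20 on FPKM, where most of the difference was shared by all genes.

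From pre-B to immature B cells the summed CPM was lower again, at 0.566 of the pre-B value (95% interval 0.418 to 0.759). Here 7 members passed the filter, of which 4 were called lower (Incenp, Spc25, Prc1 and Ncapd2), where 20.2% of 5838 genes were, and 0 were called higher, where 18.9% of genes were. The intervals of Incenp, Spc25 and Prc1 include no difference, and all 7 passed the filter through the pre-B library. Of all 40 members, 24 had a lower CPM in immature B cells, 11 a higher one and 5 were at 0 in both. Both libraries had nearly the same depth and mRNA share, no scaling moved the median of all genes by more than 0.1, and the summed ratio lay between 0.497 on FPKM and 0.577 with TMM under the other scalings.

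From immature B to mature B cells the CPM and FPKM scales differed most. The summed CPM in mature B cells was 1.26 times that in immature B cells, with a 95% interval (0.976 to 1.66) that includes no difference. The summed FPKM was 4.64 times as high, but the median log2 ratio of all genes was also 2.13 on that scale. With mRNA and lncRNA counts together it was 2.05. Relative to the median of all genes the log2 difference of the sum was 0.14 on CPM and 0.08 on FPKM. Of the 21 members that passed the filter, 4 were called higher in mature B cells (Top2a, Knl1, Smc4 and Ncapd2), where 24.2% of 8363 genes were, and 0 were called lower, where 18.1% of genes were. All 21 passed the filter through the mature B library and 1 of them also through that of immature B, so nothing is read from the 0 called lower. The intervals of Top2a and Knl1 include no difference. Tpx2, which did not pass, had 7 counts in immature B and 0 in mature B cells, with a 95% interval of the ratio up to 0.399. By CPM alone 22 of the 40 were higher in mature B cells, 15 were lower and 3 were at 0 in both.

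The pro-B and mature B libraries had like mRNA totals and like mRNA shares, so the start and the end of the series could be compared at the same depth. The summed CPM in mature B cells was 0.308 of that in pro-B cells (95% interval 0.272 to 0.347). Of the 35 members that passed the filter, 26 were called lower in mature B cells, where 24.2% of the 9634 genes tested were, and 0 were called higher, where 13.2% of genes were. The intervals of Ccnb1, Nuf2 and Espl1 include no difference and those of the other 23 called lower do not. All 35 passed the filter through the pro-B library and 21 of them also through that of mature B, so the filter favours calls of lower. The members tested had a median log2 CPM ratio of -1.67 against -0.19 for all genes tested. The filter lowers the members' median too, so nothing is read from this distance. By CPM alone 36 of the 40 were lower in mature B cells, and Cdk1 and Aurka were higher. The sum relative to the median of all genes was lower by a log2 of -1.51 on CPM and of -1.17 on FPKM, and TMM moved the median itself by 0.15 and DESeq2 by 0.18. All 9 role groups were lower in mature B than in pro-B cells under each of the 6 scalings.

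**Figure D3:**
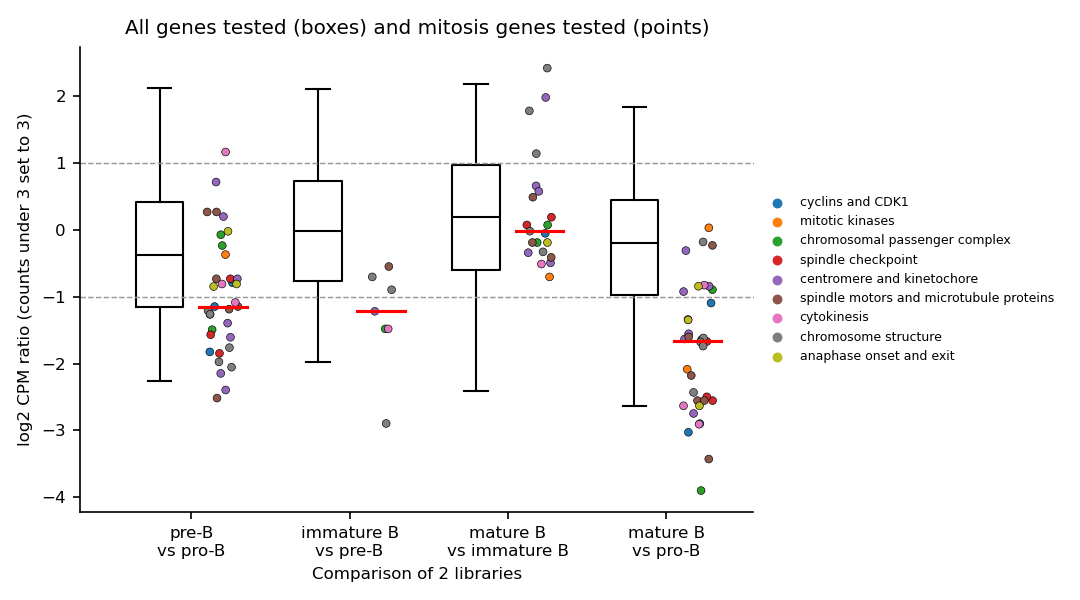
log2 CPM ratios of all genes tested (boxes show the quartiles, whiskers 5% to 95% of genes) and of the mitosis genes tested (points, coloured by role, red line at their median) in the 4 comparisons of 2 libraries; dashed lines mark 2-fold. The members' median was -1.67 between mature B and pro-B, where that of all genes was -0.19. All members tested there passed the filter through the pro-B library, which lowers their median.

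Long transcripts had lower ratios than short ones between pre-B and pro-B cells, so the members were set beside genes of like length. The transcript length that the deposited values imply, which is proportional to count over FPKM, could be had for 38 of the 40 members, and the genes tested were split into 3 classes of equal size. A gene was given a single length, its median over the libraries, although count over FPKM differed between libraries for some genes, such as Aspm. Between pre-B and pro-B the median log2 CPM ratio of all genes was -0.07 for short, -0.44 for middle and -0.65 for long transcripts. The median of the members tested was -0.79 for the 9 short, -0.73 for the 12 middle and -1.33 for the 14 long ones. Since all 35 passed the filter through the pro-B library, which lowers their medians in both comparisons with pro-B, nothing is read from the distance to all genes. Between mature B and pro-B the classes differed little, at -0.28, -0.17 and -0.14 for all genes, and the members' medians were -2.08 (9 short), -1.55 (11 middle) and -1.74 (15 long). The part of transcript length and of the mRNA share in the members' values was not tested beyond this.

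Chromosome structure genes held more of the members' counts than any other role, at 53.8% of them in pro-B, 46.6% in pre-B, 41.9% in immature B and 52.8% in mature B cells. Their summed CPM was 1405 in pro-B, 526 in pre-B, 268 in immature B and 424 in mature B cells, and the mature B value was 1.58 times the immature B one (95% interval 1.07 to 2.41) on CPM and 6.80 times it on FPKM. Mki67, which encodes the proliferation marker Ki-67 that coats mitotic chromosomes, had the most counts of all members. It had 634 counts in pro-B, 76 in pre-B, 38 in immature B and 115 in mature B cells, or 730.5, 316, 170.0 and 135 CPM. The highest value was in pro-B cells and the order of the CPM values followed the order of the stages. For the last step, however, the mature B to immature B ratio of 0.796 had a 95% interval (0.471 to 1.43) that includes no difference. The mature B value was 0.185 of the pro-B value (95% interval 0.139 to 0.248) and the pre-B value 0.433 of it (0.301 to 0.608). On FPKM the order differed, at 16.7, 1.31, 0.72 and 2.16, with mature B above pre-B.

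Top2a, the topoisomerase that untangles sister chromatids, had 242 CPM in pro-B, 58.3 in pre-B, 35.8 in immature B and 78.9 in mature B cells. It was called lower in pre-B cells than in pro-B, with a ratio of 0.241 (95% interval 0.0945 to 0.514), and lower in mature B than in pro-B cells, with a ratio of 0.326 (0.218 to 0.491). Ncapd2 and Ncapg belong to condensin I and Smc2 and Smc4 to the core of both condensins, the rings that compact chromosomes. Ncapd2 had 208 counts in pro-B, 24 in pre-B, 2 in immature B and 61 in mature B cells, and so was called in all 4 comparisons. Its immature B value was 0.0896 of the pre-B value, with a 95% interval of 0.0021 to 0.605. Smc2 had 49, 4, 4 and 15 counts and was called lower in pre-B and in mature B than in pro-B cells.

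Smc4 had 118 counts in pro-B, 8.33 in pre-B, 7.82 in immature B and 102 in mature B cells, and the mature B value was 0.882 of the pro-B value (95% interval 0.595 to 1.31). On CPM the values were 136, 34.7, 34.99 and 120.2, and on FPKM, where mature B was above pro-B, 6.11, 0.89, 1.56 and 8.90. Relative to the median of all genes its log2 ratio of mature B to pro-B was 0.01 on CPM and 0.73 on FPKM. Its share of the members' counts was 5.22% in pro-B (95% Wilson interval 4.06 to 6.66) and 15.0% in mature B cells (11.6 to 19.1), whereas that of Mki67 was 28.0% (25.4 to 30.7) and 16.9% (13.4 to 21.4). Shares of counts favour long transcripts, and of the members' FPKM in mature B cells Smc4 held 18.4% and Mki67 4.47%.

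The cyclins and CDK1 drive entry into mitosis: cyclin A2 and the B cyclins bind CDK1, and the active kinase starts chromosome condensation and breakdown of the nuclear envelope. Their summed CPM was 105 in pro-B, 59.7 in pre-B, 58.5 in immature B and 29.5 in mature B cells, and the mature B sum was 0.280 of the pro-B sum (95% interval 0.143 to 0.544). Relative to the median of all genes the pre-B sum was at a log2 of -0.45 against pro-B on CPM, but on FPKM this flipped to 0.02. Ccna2, with the most counts of the role, had 38.4 counts in pro-B, 2.33 in pre-B, 7.08 in immature B and 5.04 in mature B cells. Its mature B CPM was 0.134 of the pro-B value (95% interval 0.0306 to 0.548). Ccnb1, a B cyclin, had 24, 2, 0 and 11 counts. Ccnb2, the other B cyclin, had 25, 4, 4 and 3 counts, and like Ccnb1 was highest in pro-B cells. Cdk1 had 4, 6, 2 and 6 counts, too few in any library to pass the filter.

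Promoters were searched because many late cell cycle genes share promoter motifs, and are shown for Mki67, with the most counts, and for the genes of the cyclins and CDK1 with either motif. The motifs were the cell cycle homology region (TTTGAA or TTCGAA), an element of late cell cycle promoters that the MuvB complex binds, and the CCAAT box (CCAAT), bound by NF-Y, both searched on both strands. Capitals mark either motif. The sequences are RefSeq promoters of build GRCm38.p6, from 250 bases before to 50 after the start, 5′ to 3′ on the gene's strand: Mki67 at chr7:135716330-135716629 (- strand), Ccnb1 at chr13:100786437-100786736 (- strand), Ccnb2 at chr9:70421505-70421804 (- strand) and Cdk1 at chr10:69352863-69353162 (- strand).
Mki67: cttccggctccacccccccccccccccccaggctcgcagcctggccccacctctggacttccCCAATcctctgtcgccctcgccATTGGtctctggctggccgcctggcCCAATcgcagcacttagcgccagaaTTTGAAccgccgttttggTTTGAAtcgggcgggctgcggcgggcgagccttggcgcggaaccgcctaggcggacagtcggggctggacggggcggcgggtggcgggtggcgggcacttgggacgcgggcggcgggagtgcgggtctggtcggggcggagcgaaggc
Ccnb1: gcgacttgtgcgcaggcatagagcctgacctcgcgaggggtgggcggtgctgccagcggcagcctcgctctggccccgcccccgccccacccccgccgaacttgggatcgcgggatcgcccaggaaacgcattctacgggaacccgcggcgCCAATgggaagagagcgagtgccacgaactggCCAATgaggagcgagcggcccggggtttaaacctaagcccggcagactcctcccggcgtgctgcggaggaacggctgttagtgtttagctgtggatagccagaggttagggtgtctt
Ccnb2: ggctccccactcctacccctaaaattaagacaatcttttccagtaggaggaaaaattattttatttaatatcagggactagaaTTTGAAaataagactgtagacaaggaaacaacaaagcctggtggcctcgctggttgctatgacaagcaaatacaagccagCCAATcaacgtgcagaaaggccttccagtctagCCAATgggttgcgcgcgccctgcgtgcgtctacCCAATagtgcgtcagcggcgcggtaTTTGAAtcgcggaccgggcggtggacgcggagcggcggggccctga
Cdk1: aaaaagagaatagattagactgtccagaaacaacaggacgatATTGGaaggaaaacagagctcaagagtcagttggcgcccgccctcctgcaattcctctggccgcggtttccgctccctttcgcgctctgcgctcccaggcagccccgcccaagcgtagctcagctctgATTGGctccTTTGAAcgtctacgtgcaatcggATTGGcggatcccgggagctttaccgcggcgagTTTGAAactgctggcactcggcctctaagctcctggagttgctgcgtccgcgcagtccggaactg

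Mki67, Ccnb2 and Cdk1 each have 2 matches of the homology region and 3 of the CCAAT box, whereas Ccnb1 has 0 and 2. A promoter was found for 34 members, 35 promoters in all since Prc1 has 2, and Aurkb, Tpx2, Kif20a, Smc4, Ccna2 and Incenp had no entry. The homology region occurred in 29 of these 35 promoters (82.9%) and in 19.2% of all 32851 promoters. The CCAAT box occurred in 27 of the 35 (77.1%) and in 37.4% of all promoters, and both motifs together in 25 (71.4%) and in 7.52%. In 26 members' promoters (74.3%) the nearest homology region began within 50 bases of the start, and in 5.31% of all promoters. It was farther away in Mki67, Ncapd2 and Kif2c, and not found in Cenpe, Nuf2, Birc5, Mad2l1, Ccnb1 and Nusap1. These matches describe the letters in the window and do not show binding.

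**Figure D4:**
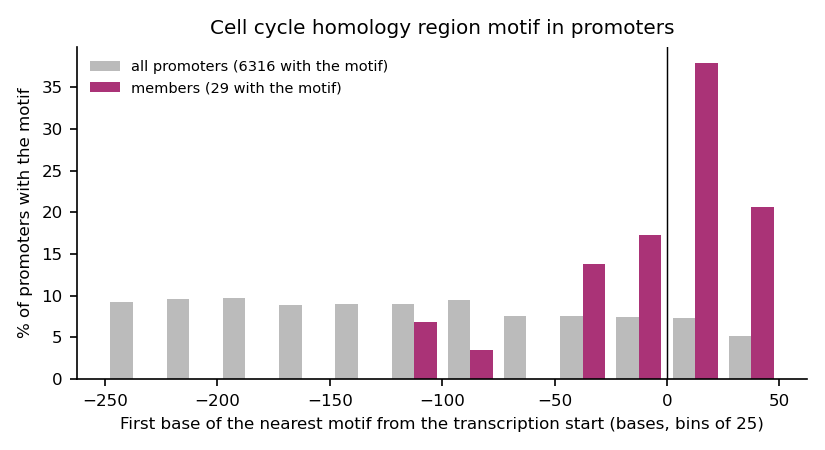
Position of the homology region nearest to the transcription start, in bins of 25 bases, as a share of the promoters that hold the motif, for members (29 promoters) and all promoters (6316). For members 26 of 29 lie within 50 bases of the start, whereas over all promoters the positions are spread over the window.

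Mitotic kinases phosphorylate proteins of the centrosomes, spindle and kinetochores. Aurka, which encodes Aurora A of the spindle poles, had 14 counts in pro-B, 2 in pre-B, 6 in immature B and 14 in mature B cells. Its CPM was 16.1, 8.33, 26.8 and 16.5, and the mature B value was 1.02 times the pro-B value (95% interval 0.306 to 3.41), so no difference was detectable. Plk1, which encodes polo-like kinase 1, had 26, 2, 0 and 6 counts and was called lower in pre-B and in mature B than in pro-B cells. The sum of both kinases in immature B cells was 1.61 times the pre-B sum (95% interval 0.185 to 19.3), and its direction flipped on FPKM, with a ratio of 0.772.

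The chromosomal passenger complex corrects wrong attachments of chromosomes to the spindle, with Aurora B as its kinase. Its summed CPM was 160.2 in pro-B, 104 in pre-B, 26.8 in immature B and 40.03 in mature B cells. Its pre-B sum, relative to the median of all genes, was at a log2 of -0.25 against pro-B on CPM and flipped to 0.48 on FPKM. Incenp, its scaffold, had 51 counts in pro-B, 12 in pre-B, 4 in immature B and 16 in mature B cells. The Incenp CPM in pre-B cells, 49.95, was close to the 58.8 of pro-B cells, and it was called lower at the next step with an interval that includes no difference. Cdca8, which encodes borealin, had 61, 6, 0 and 4 counts, and its mature B value was 0.0670 of the pro-B value (95% interval 0.00789 to 0.268). Aurkb, the kinase itself, had 19, 5, 2 and 10 counts and was not called in any comparison. Birc5, which encodes survivin, had 8, 2, 0 and 4 counts and did not pass the filter.

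The spindle checkpoint holds back anaphase until every chromosome is attached. Its summed CPM was 157, 45.8, 17.9 and 31.8, and the mature B sum was 0.203 of the pro-B sum (95% interval 0.109 to 0.378). Bub1b, which encodes BubR1 of the mitotic checkpoint complex, had 75 counts in pro-B, 7 in pre-B, 2 in immature B and 13 in mature B cells. It was called lower in pre-B cells than in pro-B at a ratio of 0.337, with an interval that includes no difference (0.0986 to 1.06), and in mature B cells at 0.177 (0.0557 to 0.385). Mad2l1, which encodes the checkpoint protein MAD2, had 39, 2, 2 and 12 counts and was called lower in the same comparisons, with an interval that includes no difference in pre-B (0.00436 to 1.13). Bub1, a checkpoint kinase, had 18, 2, 0 and 0 counts and was called lower in mature B than in pro-B cells, with a 95% interval of the ratio up to 0.518. Ttk, the checkpoint kinase MPS1, had 4, 0, 0 and 2 counts.

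Centromere and kinetochore genes mark the centromere and link it to microtubules. Their summed CPM was 306, 126, 79.3 and 135, and in mature B cells it was 0.443 of the pro-B sum (95% interval 0.322 to 0.611). Relative to the median of all genes the pre-B sum was at a log2 of -0.91 against pro-B on CPM, and flipped to 0.37 on FPKM. Knl1, the kinetochore scaffold for checkpoint proteins, had 57.0 counts in pro-B, 6 in pre-B, 2 in immature B and 45 in mature B cells. Like Smc4 it had its highest CPM at both ends of the series, with 65.7 in pro-B and 53.0 in mature B cells. It was called lower in pre-B cells than in pro-B (ratio 0.380, 95% interval 0.0729 to 1.21). It was called higher in mature B than in immature B cells (ratio 5.92, 95% interval 0.936 to 239). Both intervals include no difference, whereas those of Smc4 in these comparisons do not.

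Cenpf, a large protein of the outer kinetochore, had 57, 0, 2 and 18 counts, and was called lower in pre-B cells than in pro-B, with a 95% interval of the ratio up to 0.509. Cenpe, a kinetochore motor, had 48, 2, 6 and 7 counts and was called lower in pre-B and in mature B than in pro-B cells. Ndc80, Nuf2 and Spc25 are subunits of the NDC80 complex that grips the microtubule. Ndc80 had 44, 4, 0 and 17 counts. Nuf2 had 18, 2, 0 and 6 counts. Spc25 had a CPM of 25.3 in pro-B, 41.6 in pre-B, 17.9 in immature B and 14.1 in mature B cells. The 95% intervals of the pre-B to pro-B ratio include no difference for all 3, at 0.0374 to 1.34 for Ndc80, 0.00916 to 2.90 for Nuf2 and 0.447 to 5.13 for Spc25, and on FPKM Spc25 in pro-B was above pre-B, at 2.65 and 1.83. Cenpa, the histone H3 variant of centromeres, had 19.5, 6.2, 3.73 and 10.1 counts and was not called in any comparison.

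Spindle motors and microtubule proteins build the spindle. Their summed CPM was 264, 125, 89.5 and 70.6, and in mature B cells it was 0.268 of the pro-B sum (95% interval 0.174 to 0.405), whereas the FPKM ratio, 0.557, lay outside that interval. Kif11, the kinesin Eg5 that pushes the spindle poles apart, had 74 counts in pro-B, 9 in pre-B, 0 in immature B and 16 in mature B cells. It was called lower in pre-B and in mature B than in pro-B cells, with ratios of 0.439 (95% interval 0.101 to 1.09) and 0.221 (0.0889 to 0.482). Aspm, a protein of the spindle poles, had 62, 0, 6 and 20 counts. Its direction between mature B and pro-B cells differed by measure, since FPKM was 3.37 in mature B and 1.16 in pro-B cells. Aurka, by contrast, had 14 counts in both libraries and an FPKM of 1.38 in pro-B and 1.42 in mature B cells. By the authors' formula the length used for Aspm thus differed between these libraries. FPKM differences of members and roles can hold such changes of length besides the scaling.

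Tpx2, which activates Aurora A on the spindle, had 33, 11, 7 and 0 counts. It was called lower in mature B than in pro-B cells, with a 95% interval of the ratio up to 0.265. Its CPM was 38.0 in pro-B, 45.8 in pre-B and 31.3 in immature B cells, whereas its FPKM was 1.74 in pro-B, 0.55 in pre-B and 0.38 in immature B cells. Nusap1, a protein that bundles microtubules, had 24, 2, 7 and 20 counts and was called lower in pre-B cells than in pro-B only. Hmmr, a microtubule protein of the spindle, had 18, 6, 0 and 2 counts. Kif2c, a kinesin that shortens microtubules, had 18, 2, 0 and 2 counts, and like Hmmr was called lower in mature B than in pro-B cells.

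Cytokinesis genes divide the cell after anaphase. Their summed CPM was 104 in pro-B, 108 in pre-B, 62.6 in immature B and 27.1 in mature B cells, so that this was the only role whose pre-B sum was not below the pro-B sum on CPM, whereas its FPKM in pre-B was 0.509 of that in pro-B cells. Prc1, which cross-links the microtubules of the central spindle, held 18 of the 26 pre-B counts of the role, with 29 counts in pro-B, 18 in pre-B, 6 in immature B and 16 in mature B cells. Its CPM was 33.4, 74.9, 26.8 and 18.8, and it was the member called higher in pre-B cells than in pro-B, at a ratio of 2.24 with an interval (0.887 to 5.76) that includes no difference and an FPKM that was lower (2.64 against 2.84). Anln, which encodes the cleavage furrow protein anillin, had 38, 6, 4 and 6 counts. Kif23, a kinesin of the central spindle, had 23, 2, 4 and 1 counts, and like Anln was called lower in mature B than in pro-B cells.

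Anaphase onset and exit need the anaphase-promoting complex, which Cdc20 activates and Ube2c supplies with ubiquitin, and the protease separase, which Espl1 encodes. Their summed CPM was 64.5, 16.7, 8.95 and 21.2. Espl1 had 26 counts in pro-B, 4 in pre-B, 2 in immature B and 10 in mature B cells, and its mature B value was 0.393 of the pro-B value (95% interval 0.110 to 1.17). Ube2c had 19, 0, 0 and 2 counts and was called lower in mature B than in pro-B cells. Cdc20 had 11, 0, 0 and 6 counts, and was not called in any comparison. At the depth of the pre-B library a difference from pro-B was not detectable for Ube2c and Cdc20, with 95% intervals of the pre-B to pro-B ratio up to 1.61 and 3.07.

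**Figure D5:**
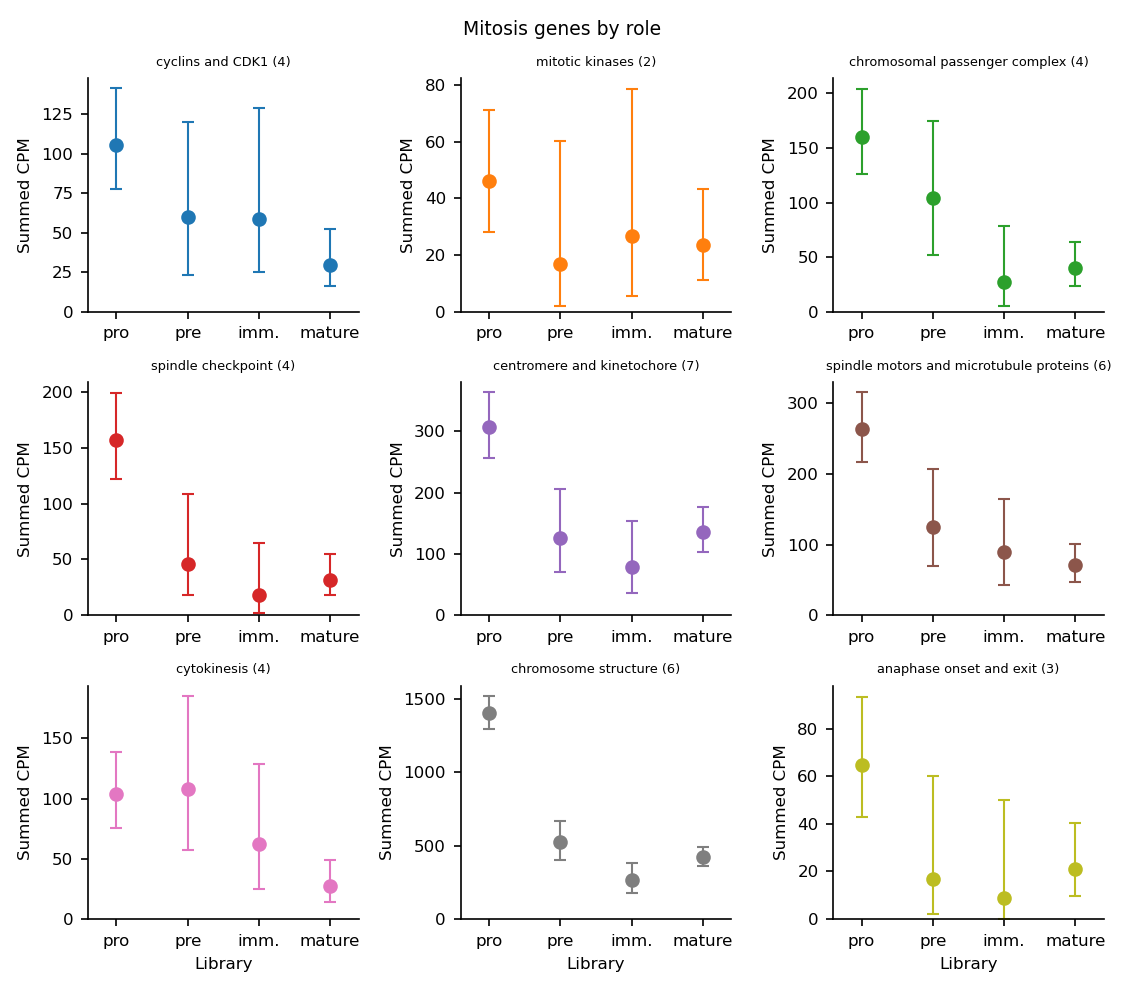
Summed CPM of the mitosis genes by role (number of members in brackets) in the 1 library of each stage; points are sums and bars 95% counting intervals on read pairs. All 9 roles have a lower sum in mature B than in pro-B cells, and only the cytokinesis sum in pre-B is not below pro-B.

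Other readouts of the same libraries held little of these genes. Among 1005 circRNAs listed, 1 arose from a member: a circle of an exon of Bub1b on chromosome 2 (+ strand, 118617706 to 118617935, 230 bases), with 4 back-spliced reads in pro-B, 0 in pre-B, 2 in immature B and 0 in mature B cells. Its coordinates lie in Bub1b in GRCm38, and 96.8% of the 628 sense circRNAs that could be matched lay in their gene in that assembly, although the labels name mm9. The lncRNA table holds 34 transcripts under members' symbols, of which 14, of 10 genes, had counts above 0. Their counts summed to 51.1 in pro-B, 15.9 in pre-B, 0 in immature B and 26.6 in mature B cells and were highest where the mRNA counts were.

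Markers of other cell types are given here because some of these cells divide, although all libraries were of cells sorted as B220+. T and NK cell markers were above 0 in 8 of 10 genes in the pro-B library, with a summed CPM of 308 there and of 12.5, 26.8 and 5.89 in the others. Gzma had the most counts of them, 106 in the pro-B library, while Cd3e and Cd3d were at 0 there. Siglech, which marks plasmacytoid dendritic cells, had 105 counts in pro-B, 0 in pre-B, 4 in immature B and 0 in mature B cells, and the list of 5 had a summed CPM of 1214, 1128, 1683 and 496 with most counts from Ly6d, which B-lineage cells also express. Of these 5, 4 were called lower and Ly6d higher in pre-B against pro-B, where 29.2% of all genes were called lower and 14.8% higher. In mature B against pro-B 4 were called lower, where 24.2% of all genes were. From pre-B to immature B 1 of 4 tested was called higher, where 18.9% of all genes were, and 0 lower, where 20.2% were. Markers of myeloid cells summed to 1843, 2002, 1502 and 1316 CPM, with 13 of 14 above 0 in pro-B, Lyz2 having the most counts and Csf1r at 0 in all 4 libraries. Those of erythroid cells summed to 817, 569, 481 and 358 CPM, with 10 of 11 above 0 in pro-B, Tfrc having the most counts and Epor at 0 there. The part of these cells in the members' pro-B values was not tested.

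Related lists were set beside the members. The 72 other G2/M genes in the table, which hold further genes of the same program, had a summed CPM of 2053, 1250.1, 881 and 909, and between mature B and pro-B cells 28 of the 43 tested were called lower, where 24.2% of all genes were, and 1 higher, where 13.2% were. DNA replication genes had a pre-B sum near that of pro-B on CPM, slightly above it with DESeq2 size factors and far below it on FPKM, with 3949 CPM in pro-B, 3717 in pre-B, 1624 in immature B and 1574 in mature B cells. Gins2 alone had 365 counts in pre-B against 104 in pro-B and 0 in immature B cells, so the pre-B sum of that list rests in large part on 1 gene. Cohesin and its regulators, which resting cells also use, had 3151, 1043, 918 and 2752 CPM, or 0.331 of the pro-B value in pre-B cells and 0.873 of it in mature B cells. Housekeeping genes had 17917, 14501, 17789.8 and 19321 CPM, or 0.809 of the pro-B value in pre-B cells. On FPKM the pre-B library was far below the pro-B library for all 4 lists, at 27.3 against 147 for the other G2/M genes, 60.3 against 271 for DNA replication, 14.5 against 129 for cohesin and 530 against 2543 for housekeeping genes. The median FPKM ratio of all genes tested between these libraries was 0.195, so much of this lay in all genes and not in the lists alone.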

How the data were processed

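Total RNA depleted of rRNA was sequenced from 4 pools of sorted cells, 1 library per stage, and 4 small RNA libraries of the series were not used. Per the authors' methods, reads were filtered with fastp 0.18.0, rRNA reads were removed with Bowtie2 2.2.8, and pairs were mapped with HISAT2 2.1.0 and assembled with StringTie 1.3.4. The deposited mRNA and lncRNA tables hold expected counts (estimated counts, not all whole, not normalized) and FPKM as computed by the authors. Back-spliced reads are given as counts in the deposited circRNA table, for circles with at least 2 unique reads in at least 1 library. The labels name the genome build mm9 and Bowtie 0.12.2 without saying for what, whereas 608 of the 628 sense circRNAs matched by symbol (96.8%) lay inside their gene in GRCm38.p6.

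The members, gene lists and rules were chosen with earlier results of these data known. Counts were scaled to CPM of the mRNA column total, which ran from 223495 to 867920. Each member was named by role, with the member of most counts per role in full; of the other lists, the 3 genes with the most counts and genes called against the direction of most called genes of their list were named, and promoters were shown for the member with the most counts and for members of the cyclins and CDK1 with a motif. A gene with 10 or more counts in at least 1 of 2 libraries was called at a CPM ratio of at least 2 or at most 0.5, with counts under 3 set to 3. The 95% intervals are exact Poisson intervals for sums, exact conditional binomial intervals for ratios and Wilson intervals for shares. They were computed on read pairs, which was chosen after seeing the data, and cover counting error only. The floor of 3 counts in the calls is a separate setting, and the intervals for 0 counts reach higher than it. With 1 library per stage no test was run. The scalings tried were edgeR 4.0.16 TMM and DESeq2 1.42.0 size factors (on counts rounded to whole numbers), the total of mRNA and lncRNA counts, the total without immunoglobulin genes, and FPKM. Other alternatives were no count filter, a fold of 4, leaving out the member with the most counts, and the median over members. Added after seeing the data were a floor of 6 counts, a filter of 20 counts, ratios relative to the median of all genes, and leaving out the 6 members of chromosome structure. The lncRNA-table transcripts of members were also chosen after their values were seen. R 4.3.3 was used for size factors, and scipy 1.17.1, matplotlib 3.10.9, pandas 2.3.3 and numpy 2.4.6 under Python 3.11.15 for the rest, and the calculations were tested on simulated data.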

Additional observations from a re-analysis of the deposited data

How the results depend on the processing

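No paired analysis or leaving out of replicates was possible because each stage has 1 library. The ratios of summed CPM stayed within the counting interval of the reported value in 27 of 36 alternatives, of which 26 had the same direction, and the numbers of members called lower or called higher stayed within 1.5-fold in 30 of 40 each. The ratio ran from 0.118 to 0.558 for pre-B against pro-B, from 0.430 to 0.616 for immature B against pre-B, from 0.987 to 4.64 for mature B against immature B and from 0.305 to 0.391 for mature B against pro-B.

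With the total of mRNA and lncRNA counts the ratio was 0.118 for pre-B against pro-B and 4.57 for mature B against immature B, with 34 members called lower and 0 called higher in pre-B and 21 called higher in mature B. With FPKM the ratios of these comparisons were 0.170 and 4.64, with 31 called lower, 0 called higher and 20 called higher, and for mature B against pro-B the ratio was 0.391 with 1 called higher. Of all genes, 83.5% were called lower in pre-B and 79.7% higher in mature B with the total of both RNA kinds, and 81.5% and 77.3% with FPKM, where 15.0% were called higher in mature B against pro-B. For mature B against pro-B the ratio was 0.348 with DESeq2 and 0.355 without Mki67. The median over members tested reversed the direction for mature B against immature B, at 0.987. Relative to the median of all genes the ratio was 0.558 for pre-B and 0.351 for mature B against pro-B, with 12 called lower (19.1% of all genes) and 2 called higher (20.7%) in pre-B.

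A fold of 4 left 4 of 35 members called lower (7.90% of all genes) and 0 called higher (5.57%) in pre-B against pro-B, the former near the share of all genes. It left 1 of 7 called lower in immature B against pre-B (4.95%), 1 of 21 called higher in mature B against immature B (6.78%) and 15 of 35 called lower in mature B against pro-B (9.58%). Without a filter 5 were called higher in pre-B against pro-B and 5 in immature B against pre-B (7.74% of all genes), and 15 were called lower in mature B against immature B (65.4%). In the comparisons of unequal depth, genes at or under 3 counts in both libraries take the ratio of the library depths without a filter, and 61.0% of all genes were called higher in pre-B against pro-B. A floor of 6 counts gave 2 called lower in immature B against pre-B (15.2% of all genes) and 4 in mature B against immature B (21.6%), and a filter of 20 counts gave 1 called lower in immature B against pre-B (17.9%), where 2 members were tested. Apart from this construction, the cause was not tested.

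Depth limits the pre-B and immature B values: 1 count there is worth 4.16 and 4.47 CPM, and 7 and 1 members reached 10 counts.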

Other observations

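Each list of regulators and machinery in this paragraph had its highest summed CPM in pro-B cells. Counts called, here and in the paragraphs below, are read against all genes. Of these, 29.2% were called lower and 14.8% higher in pre-B against pro-B, and 20.2% and 18.9% in immature B against pre-B. The shares were 18.1% and 24.2% in mature B against immature B, and 24.2% and 13.2% in mature B against pro-B. The 22 MuvB, E2F and FOXM1 regulators, with Rbbp4, Dyrk1a and E2f2 having the most counts, summed to 1831, 1095, 939 and 1103 CPM in the order of stages, and 9 of 19 tested were called lower in mature B than in pro-B cells while Lin37 was called higher. The 16 genes of the anaphase-promoting complex and its coactivator Fzr1, with Anapc1, Anapc5 and Anapc7 having the most counts, summed to 1131, 749, 807 and 764 CPM, and of 13 tested Anapc4 and Fzr1 were called higher in pre-B cells than in pro-B and 3 lower, near the share of all genes. Anapc4 was also called higher in mature B against pro-B, where 4 of 13 were called lower. The condensin II genes Ncapd3, Ncaph2 and Ncapg2, which had the most counts, and Ncaph of condensin I together summed to 319, 95.7, 192 and 91.8 CPM, and all 4 of 4 tested were called lower in mature B than in pro-B cells. The 13 phosphatase genes of mitotic exit, with Ppp1cc, Ppp2ca and Ppp1cb having the most counts, summed to 2549, 1749, 1724 and 1856 CPM, and of 13 tested Ppp2r1b was called higher in pre-B cells than in pro-B and 5 lower.

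The 15 genes of cell cycle exit and quiescence were highest in mature B cells, at 2369, 2688, 2411 and 3489 CPM. Btg1, which slows proliferation, had 355, 144, 98.6 and 741 counts. S1pr1, the receptor for exit from the marrow, had 212, 74, 125 and 600.0 counts, and Klf2, a factor of resting lymphocytes, 224, 139, 102 and 371. Cdkn1b, with 186, 19.0, 16.4 and 135 counts, and Foxo3 were called lower in pre-B cells than in pro-B. There 3 of 14 tested were called higher. Cdkn1a, at 14.1 counts in pro-B and 2 in mature B cells, was called lower in mature B than in pro-B cells. In that comparison 2 of 13 tested were called higher, near the 13.2% of all genes. Among replication genes Mcm6, of the replicative helicase, had 406, 53, 16 and 92 counts and Rrm1, of ribonucleotide reductase, 270.0, 28, 10 and 94. Tyms and Tipin, with Gins2, were called higher in pre-B cells than in pro-B against 15 of 42 tested called lower, and Rpa1 was called higher in immature B than in pre-B cells against 9 of 19 called lower. Orc1, Rfc3, Rfc4, Tyms, Dut and Chaf1a were called lower in mature B than in immature B cells. There 8 of 32 tested were called higher, near the 24.2% of all genes. Cohesin genes Nipbl, Stag2 and Rad21 had 576, 368 and 222 counts in mature B and 728, 371 and 382 in pro-B cells, and Esco2, which acetylates cohesin in S phase, was called lower in mature B cells with 14 counts in pro-B and 4 in mature B, where 2 of 12 tested were called higher.

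Of the other G2/M genes, Cdc25b, a phosphatase that activates CDK1, had 284, 18.6, 6 and 120 counts, Ckap5, a microtubule polymerase, 129, 17, 6 and 91, and Hjurp, the chaperone of CENP-A, 156, 19, 10 and 40.2. Haus6 and Sgo1 were called higher in pre-B cells than in pro-B, where 14 of 39 tested were called lower. Arhgap11a, Cenpu and Plk4 were called higher in immature B than in pre-B cells, where 5 of 12 were called lower. Cdc25b and Ckap5 were called higher in mature B than in immature B cells, where 3 of 23 were called lower, and Cenpu was called higher in mature B than in pro-B cells, where 28 of 43 were called lower. Plasma cell markers, with Xbp1 having the most counts and Tnfrsf17 at 0, summed to 316, 375, 282 and 111 CPM. Markers of megakaryocytes and basophils, with Prg2 having the most counts and Gp9 and Ppbp at 0, summed to 95.6, 45.8, 44.7 and 50.6 CPM. Of the housekeeping genes, with Actb, Eef1a1 and Ywhaz having the most counts, Tbp was called lower in mature B than in immature B cells, where 4 of 13 tested were called higher.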
